A study of Mus musculus with 15 samples.

Results

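Chromatin remodelers and histone modifying enzymes were examined in the livers of mice that drank fructose with or without a food preservative. The set held 79 genes, out of 19505 genes with a single symbol among 22206 probe sets on the array. They were all genes whose symbol begins with Kmt, Kdm, Setd, Smarc, Chd, Arid, Brd or Hdac followed by a family number or letter, 1 probe set per gene. The Y-linked Kdm5d was left out and served instead as 1 of 3 Y-linked genes that described the arrays. Membership did not use any measured difference, although the set was proposed with results of these data known.

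The animals were C57BL/6 mice that carried a human gut microbiota, descended from colonised germ-free animals. RNA from whole livers was hybridised to 15 arrays, 1 for each mouse, and each of the 5 groups held 3 mice. Control mice drank water. The 4 other groups drank fructose at 10% (w/v), either alone or together with potassium sorbate, sodium nitrite or sodium benzoate in amounts meant to match the highest estimated daily intake in Europe. According to the methods, drinking began at 3 weeks of age and lasted 11 weeks, so that the animals were 14 weeks old at the end, while the labels give an age of 11 weeks. No group received a preservative without fructose, so all preservative effects were measured on top of fructose. All animals shared the microbiota, and the results therefore apply to mice humanised in this way.

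DNA in the nucleus is wound around histones, and the enzymes of this set determine how tightly it is packed. Methyltransferases and demethylases add and remove methyl groups on histone lysines, for example at active promoters (H3K4) or in silenced genes (H3K9 and H3K27). Deacetylases remove acetyl groups, which usually goes with lower transcription. Remodelling ATPases of the SWI/SNF, ISWI and CHD families slide or evict nucleosomes. In the liver, such enzymes act as coregulators of the nuclear receptors that govern lipid, bile acid and glucose metabolism, and several of them use metabolites as cofactors, namely S-adenosylmethionine, alpha-ketoglutarate and FAD.

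Of the 79 genes, 28 rose in fructose-treated mice against water controls, 1 fell and 50 did not pass the test. A gene was called when limma, fitted on all 15 arrays, gave a false discovery rate (FDR, Benjamini-Hochberg over all 22206 probe sets) under 0.05 and a fold change over 2, the thresholds named in the methods. The share that rose was 35.4%, against a background of 8.52% of all probe sets. The background for falls was 7.03%. The median log2 difference of the 79 genes was 0.55, that of all probe sets was -0.12, and 52 of the 79 differences were above 0. The largest rises belonged to the methyltransferase-family gene Kmt2e (9.29-fold), the remodelling ATPase gene Chd9 (7.38-fold), the SET-domain gene Setd5 (6.18-fold) and the X-linked H3K4 demethylase gene Kdm5c (5.68-fold). The only fall was that of Smarcd3, an accessory subunit of SWI/SNF.

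Several measures of the arrays themselves moved with these counts. The mean signal of the 4 spiked hybridization controls was 13.02 ± 0.33 (SD, n = 3) for water controls, higher than the 12.07 ± 0.14 (SD, n = 3) seen after fructose, without overlap (two-sided exact permutation test, p = 0.1, the smallest that 3 against 3 arrays allow). The median of the negative control probes was 5.61 ± 0.02 (SD, n = 3) for water controls and lay higher after fructose, at 6.44 ± 0.10 (SD, n = 3). Array medians over all probe sets ran from 6.28 to 6.49 over the 15 arrays. Those of fructose arrays (6.35 to 6.38) overlapped those of water arrays (6.38 to 6.49). Every benzoate, nitrite and sorbate array, at 6.36 or less, lay under every water array (exact permutation p = 0.1 each). When the hybridization controls entered the fit as a covariate, 0 of 79 genes and 0 of 22206 probe sets were called, 7 of the 79 genes and 8.1% of all probe sets had an unadjusted p under 0.05, and the median difference of the 79 genes was 0.02. In that fit the median standard error rose from 0.29 to 0.49. Water arrays 1 and 2 had the highest controls (13.21 and 13.20), and without them 10 of the 79 genes and 2.39% of all probe sets rose. Kmt2e (1.81), Chd9 (1.68), Setd5 (1.51) and Kdm2a (1.73) were among these 10, while Kdm5c (1.30, limma adjusted p = 0.0843), Smarcc1 (1.04, adjusted p = 0.165), Smarca4 (1.31, adjusted p = 0.0624), Arid5b (1.23, adjusted p = 0.312) and Hdac6 (0.69, adjusted p = 0.269) were not. Ribosomal protein genes moved the other way: 31 of 58 fell and 0 rose, with a median log2 difference of -1.12, and their median on single arrays ran from -0.03 to 0.03 in water and from -1.12 to -1.01 in fructose. Treatment and these measures cannot be told apart in this design, and their part in the differences below was not tested.

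**Figure D1:**
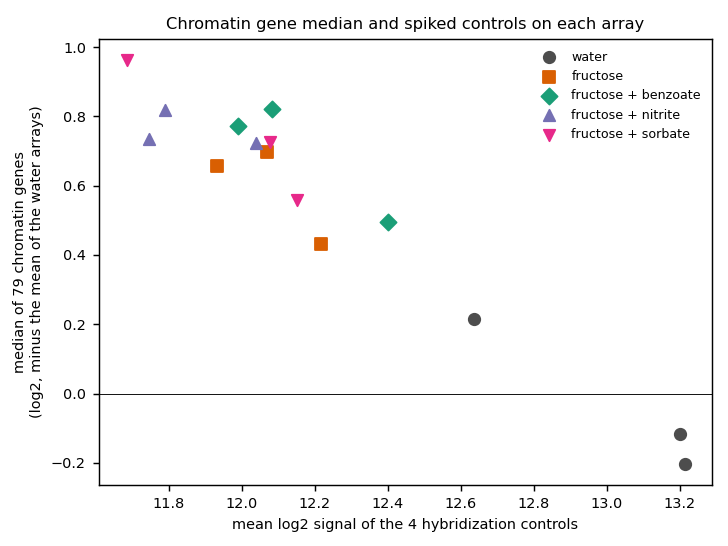
Each point is 1 array; the horizontal axis is the mean log2 signal of the 4 spiked hybridization controls and the vertical axis the median of the 79 chromatin genes, each gene taken relative to its mean on the water arrays. Water arrays lie at -0.20, -0.12 and 0.21 with controls from 12.64 to 13.21, and the 12 arrays of the other groups lie between 0.43 and 0.96 with controls from 11.68 to 12.40.

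The labelled tissue was borne out by its markers. Albumin was at 19.56 on average in water and 19.85 in fructose, and the mean level of 8 hepatocyte markers ran from 17.11 to 17.64 on water arrays and from 17.79 to 17.80 on fructose arrays. Only Apob of these 8 markers was called (3.00 higher), and the median difference of the list was 0.07. The mean of 7 Kupffer cell and macrophage markers ran from 9.10 to 9.45 on water arrays and from 8.48 to 8.75 on fructose arrays, and 2 of the 7 fell (Clec4f and Cd5l). The mean of 6 sinusoidal endothelial markers ran from 8.08 to 8.80 and from 8.88 to 9.18, with 2 of 6 higher (Kdr and Stab2) and 1 lower (Clec4g). The mean of 6 stellate markers ran from 8.10 to 8.34 and from 8.18 to 8.60, with none called. The mean of 4 cholangiocyte markers ran from 6.16 to 6.40 and from 5.87 to 6.05, with 1 lower (Epcam, -1.22). The mean of 6 lymphocyte markers ran from 5.93 to 6.05 and from 5.61 to 5.81, with none called. The defining lymphocyte markers Cd3e and Cd79a, as well as Krt19 of the cholangiocyte list and Des of the stellate list, were under the negative control median on every water and fructose array. In bulk liver, fewer cells of a type and less RNA per cell cannot be told apart, and the part of these marker differences in the results was not tested.

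Promoter sequences show what kind of gene this set holds. RefSeq promoters of the GRCm38.p6 build, 300 bases long and lying mostly before a start site, were matched for 58 of the 79 genes (79 promoters). These windows were rich in CG dinucleotides, with a median of 26 against 7 over all 32851 promoters, and their median GC content was 64.7% against 52.7%. The GC box (GGGCGG, either strand), a known target of Sp-family factors, was found in 68.4% of them against 35.7% of all promoters. The ETS core (CCGGAA) was found in 26.6% against 14.9%, and the TATA box (TATAAA) in 5.06% against 13.6%. CCAAT boxes (CCAAT) were in 34.2% against 37.4%, and E-boxes (CACGTG) in 2.53% against 7.15%. Within the set, the 23 promoters of genes that rose had a median of 21 CG dinucleotides, and the 55 promoters of genes that were not called had 27. Shares were close for the GC box (69.6% and 67.3%) and the ETS core (26.1% and 27.3%). They lay further apart for the CCAAT box (26.1% and 38.2%). The shares count windows and not genes, since the 23 windows belong to 20 genes and the 55 to 37. Some windows of a gene overlap, as in Kdm2b and Setd3, which were not called, so a match can count repeatedly. These differences were not tested. A match describes letters in the window and is not a measured binding site. The promoters below are printed 5′ to 3′, 3 of genes that rose and that of the gene that fell, with GC boxes, ETS cores and CCAAT boxes in capitals on either strand.
Smarcc1: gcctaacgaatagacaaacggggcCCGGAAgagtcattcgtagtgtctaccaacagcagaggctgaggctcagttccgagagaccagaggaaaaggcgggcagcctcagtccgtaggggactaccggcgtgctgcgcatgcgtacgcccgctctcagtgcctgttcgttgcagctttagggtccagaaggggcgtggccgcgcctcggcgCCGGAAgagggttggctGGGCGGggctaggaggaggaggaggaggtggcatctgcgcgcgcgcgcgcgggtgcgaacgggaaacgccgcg
Setd2: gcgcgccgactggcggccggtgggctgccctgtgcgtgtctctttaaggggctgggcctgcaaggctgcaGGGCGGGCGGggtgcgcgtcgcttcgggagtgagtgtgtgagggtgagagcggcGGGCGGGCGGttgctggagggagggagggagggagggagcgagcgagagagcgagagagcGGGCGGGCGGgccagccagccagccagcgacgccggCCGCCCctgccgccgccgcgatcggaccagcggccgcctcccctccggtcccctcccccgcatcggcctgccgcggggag
Kdm5c: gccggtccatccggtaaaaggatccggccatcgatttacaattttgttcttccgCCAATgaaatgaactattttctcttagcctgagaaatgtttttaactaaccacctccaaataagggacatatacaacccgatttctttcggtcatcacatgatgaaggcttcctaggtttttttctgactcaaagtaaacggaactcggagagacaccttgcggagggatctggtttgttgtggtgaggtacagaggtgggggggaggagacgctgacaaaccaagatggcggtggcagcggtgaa
Smarcd3: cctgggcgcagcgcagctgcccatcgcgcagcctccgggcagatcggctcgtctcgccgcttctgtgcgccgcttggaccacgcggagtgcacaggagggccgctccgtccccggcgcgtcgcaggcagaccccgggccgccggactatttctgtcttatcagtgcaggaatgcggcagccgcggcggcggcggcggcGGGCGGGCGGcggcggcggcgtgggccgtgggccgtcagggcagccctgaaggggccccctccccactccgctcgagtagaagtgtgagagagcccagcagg
The Smarcc1 window (chr9:110131774-110132073, plus strand) held 33 CG dinucleotides, ETS cores and a GC box. The Setd2 window (chr9:110532347-110532646, plus strand) held 38 with repeated GC boxes, and the Smarcd3 window (chr5:24601953-24602252, minus strand) 40 with GC boxes. Kdm5c (chrX:152232977-152233276, plus strand) had the sparsest of these windows, with 13 CG dinucleotides, 1 CCAAT box and no GC box. The gene that fell and a gene that rose thus had windows of the same CG-rich kind.

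**Figure D2:**
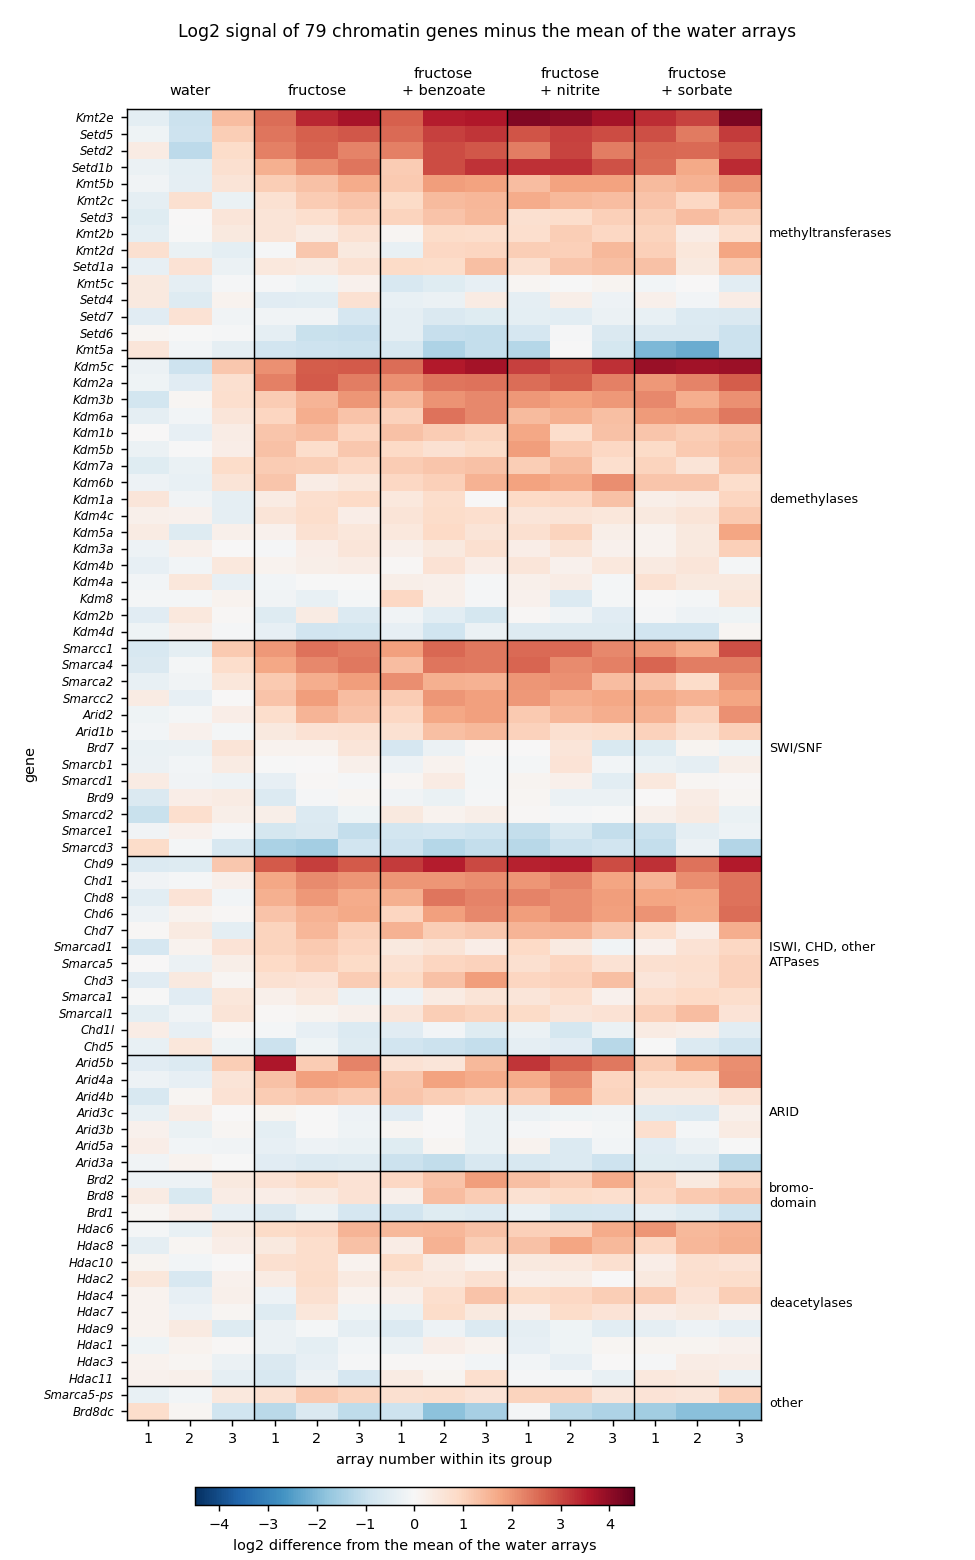
Rows are the 79 genes grouped by role and columns the 15 arrays; colour gives the log2 signal minus the mean of the water arrays. Red cells, higher than water, run through the upper rows of most role blocks on all 12 arrays of fructose-fed mice, and the third water array is redder than the other two in many of these rows.

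Among the 15 measured lysine methyltransferase genes, 6 rose in fructose, 0 fell and 9 were not called, with a median log2 difference of 0.55. Kmt2e encodes a SET-domain protein of the trithorax group that binds H3K4me3. Its log2 signal was 7.72, 7.18 and 9.56 in water and 10.68, 11.55 and 11.88 in fructose, a difference of 3.21 (SE 0.48, limma adjusted p = 0.000189). Setd5, which encodes a SET-domain protein whose gene is mutated in human intellectual disability, was at 8.09, 7.36 and 9.39 in water and at 10.69, 10.97 and 11.06 in fructose (difference 2.63, SE 0.37, limma adjusted p = 0.000135). In both genes all fructose arrays lay above all water arrays, and the third water array was the highest of its group. Setd2 encodes the enzyme that trimethylates H3K36 behind elongating RNA polymerase II. It was at 5.71, 4.15 and 6.16 in water and at 7.62, 7.97 and 7.58 in fructose (difference 2.38, SE 0.38, limma adjusted p = 0.000286), and 1 of the 3 water arrays was under the negative control median, so that the fold change was at least 3.71. Setd1b, a catalytic subunit of the main H3K4 trimethylation complexes, rose by 2.03 (SE 0.48), Kmt5b, which dimethylates and trimethylates H4K20, by 1.36 (SE 0.29). Kmt2c, an enhancer H3K4 monomethyltransferase, rose by 1.05 (SE 0.29), a call that was lost under quantile normalization (0.91), with the 2 groups alone (adjusted p = 0.0598) and without any 1 of 4 arrays (0.84 to 0.99). Kmt5a, the H4K20 monomethyltransferase, had a difference of -0.93 (SE 0.36, limma adjusted p = 0.0666) and was not called. Setd6, a methyltransferase of the NF-kappaB subunit RelA, had a difference of -0.82 with an adjusted p of 0.0286, under the fold threshold.

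Demethylases were called in a similar share, 7 of 17 genes higher and 0 lower, with a median log2 difference of 0.68. Kdm5c removes methyl groups from H3K4. Its signal was 6.59, 5.93 and 8.07 in water and 8.91, 9.58 and 9.62 in fructose, a difference of 2.51 (SE 0.42, limma adjusted p = 0.000401). Kdm2a, a demethylase of H3K36 that binds unmethylated CpG islands, was at 7.70, 7.41 and 8.62 in water and at 10.18, 10.67 and 10.22 in fructose (difference 2.45, SE 0.30, limma adjusted p = 6.24e-05). Neither gene overlapped between the groups. Kdm3b (H3K9) rose by 1.55, Kdm6a (H3K27) by 1.30, Kdm5b (H3K4) by 1.12 and Kdm7a (H3K9 and H3K27) by 1.06. The Kdm7a call was lost under quantile normalization (0.93), with the 2 groups alone (adjusted p = 0.0633) and without water array 1 (0.79), water array 2 (0.92) or fructose array 2 (1.04, adjusted p = 0.0532). That of Kdm5b was lost without water array 1 (0.99). Kdm1b, a flavin-dependent H3K4 demethylase gene, rose 2.30-fold. Kdm1a, which encodes the better known flavin-dependent enzyme LSD1, had a difference of 0.68 (SE 0.29, limma adjusted p = 0.0923) and was not called. The Kdm4 genes act on H3K9 and H3K36. They ranged from -0.05 for Kdm4a to 0.56 for Kdm4c, with none called, leaving out Kdm4d, which was under the negative control median on all arrays.

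**Figure D3:**
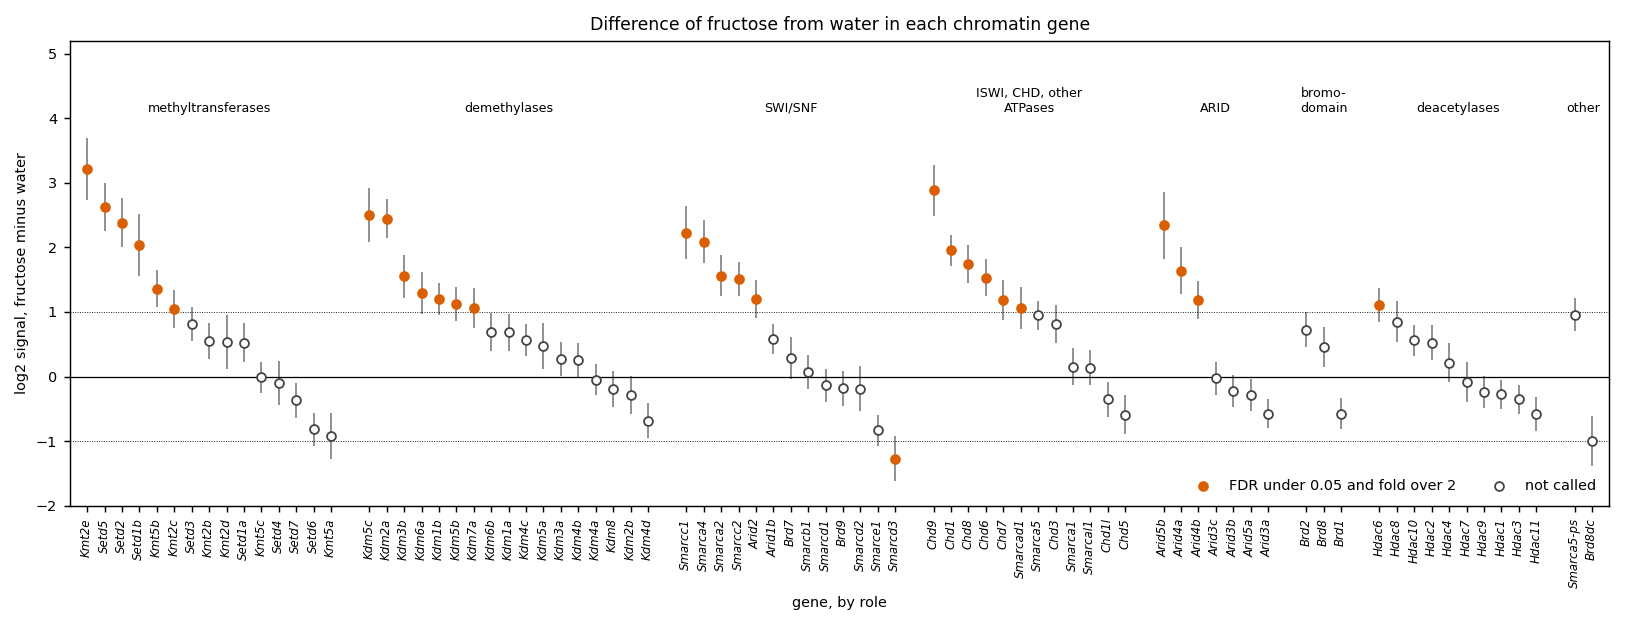
Points are the log2 differences of fructose from water for the 79 genes, ordered within role, and lines give 1 SE from limma on 15 arrays; filled points were called (FDR under 0.05 and fold over 2). Filled points reach 3.21 (Kmt2e), and the single filled point under 0 is Smarcd3 at -1.27.

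In SWI/SNF, which hydrolyses ATP to move nucleosomes, 5 of 13 genes rose, 1 fell and the median log2 difference was 0.29. Both ATPase genes rose. Smarca4, encoding BRG1, was at 6.74, 7.30 and 8.18 in water and at 9.16, 9.55 and 9.78 in fructose (difference 2.09, SE 0.34, limma adjusted p = 0.000304), and Smarca2, encoding BRM, rose by 1.56 (SE 0.32). The scaffold subunit genes Smarcc1 and Smarcc2 rose as well. Smarcc1 was at 7.41, 7.69 and 9.34 in water and at 10.08, 10.60 and 10.44 in fructose (difference 2.23, SE 0.41, limma adjusted p = 0.000807), and Smarcc2 had a difference of 1.52 (SE 0.26). Arid2, a subunit of the PBAF form of the complex, rose 2.30-fold. The other subunits on the list did not share these rises. Arid1b had a difference of 0.58 (SE 0.24, limma adjusted p = 0.0809) and Brd7 of 0.29, and neither was called. Brd9 had a difference of -0.18, with all 3 fructose arrays under the negative control median. Smarcb1 had a difference of 0.08, Smarcd1 of -0.13, Smarcd2 of -0.19 and Smarce1 of -0.83 (SE 0.24, limma adjusted p = 0.0156, under the fold threshold). Smarcd3, which encodes the BAF60c subunit, known as an insulin-responsive coactivator of lipogenic genes in mouse liver, was at 7.62, 6.71 and 6.09 in water and at 5.38, 5.29 and 5.95 in fructose. Its difference was -1.27 (SE 0.34, limma adjusted p = 0.0116). All 3 fructose arrays were under their own negative control median, which leaves a fall of at least 1.29-fold. That median was higher on fructose arrays (6.33 to 6.53) than on water arrays (5.58 to 5.63). Fructose array 3, at 5.95, lay above the medians of the water arrays. Water array 3, at 6.09, lay under those of the fructose arrays. The call was lost without water array 1 (-0.86, adjusted p = 0.0701) or without fructose array 2 (-1.15, adjusted p = 0.0545).

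ISWI, CHD and other remodelling ATPases had the highest median of the role lists, 1.00, with 6 of 12 genes higher and 0 lower. Of these 6 genes, 5 were of the CHD family, whose members combine an ATPase with chromodomains. Chd9, described as a coactivator of the nuclear receptor PPAR-alpha, was at 6.15, 6.19 and 7.98 in water and at 9.54, 9.89 and 9.54 in fructose (difference 2.88, SE 0.40, limma adjusted p = 0.000113). Chd1, which binds H3K4me3 and acts in transcription elongation, was at most 7.11 in water and at least 8.62 in fructose (difference 1.95, SE 0.25, limma adjusted p = 7.12e-05). Neither gene overlapped between water and fructose. Chd8, a repressor of beta-catenin targets, was at least 2.81-fold higher in fructose (limma adjusted p = 0.000428), a bound, since 2 of the 3 water arrays were under the negative control median. Chd6 rose by 1.53 (SE 0.29). Chd7, mutated in human CHARGE syndrome, rose by 1.18 (SE 0.31), a call lost without water array 3 (0.96) or fructose array 2 (1.02, adjusted p = 0.0546). The ATP-dependent remodeller gene Smarcad1 rose by 1.06 (SE 0.32). Its call was lost under quantile normalization (0.93), with the 2 groups alone (adjusted p = 0.0593) and without water array 1 (0.68), fructose array 2 (1.00, adjusted p = 0.0766) or fructose array 3 (1.10, adjusted p = 0.0547). Smarca5, the ISWI ATPase gene, had a difference of 0.95 (SE 0.22, limma adjusted p = 0.00446), just under the fold threshold. The pseudogene copy Smarca5-ps had 0.96, and the array may not separate the 2 copies.

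Of the 7 ARID genes outside SWI/SNF, 3 rose and 0 fell. The median difference was -0.03, which is that of Arid3c, a gene under the negative control median on all arrays. Arid5b, a cofactor of the H3K9 demethylase PHF2, had the widest spread of the genes that rose. It was at 11.31, 11.22 and 12.94 in water and at 15.47, 12.95 and 14.06 in fructose, so that the lowest fructose array lay beside the highest water array (difference 2.34, SE 0.52, limma adjusted p = 0.00345). Arid4a and Arid4b, subunits of the Sin3 corepressor complex, rose by 1.64 (SE 0.37) and 1.18 (SE 0.30), the latter not called without water array 1 (0.82). Arid3a had a difference of -0.57 (SE 0.23) and was not called. Arid5a was under the negative control median on all arrays, and Arid3b on all 3 fructose arrays. None of the 3 bromodomain readers (Brd1, Brd2 and Brd8) was called.

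Among the 10 deacetylase genes 1 rose, a share of 10% that is near the background of 8.52%, and the median difference was 0.07. The gene that rose was Hdac6, X-linked and encoding a mainly cytoplasmic enzyme that deacetylates tubulin. It was at 6.26, 6.01 and 6.76 in water and at 7.19, 7.29 and 7.88 in fructose (difference 1.11, SE 0.27, limma adjusted p = 0.00575). The difference went under the fold threshold without water array 2 (0.94) or fructose array 3 (0.90). The nuclear class I enzymes differed less. Hdac1 had a difference of -0.28 (SE 0.22), Hdac2 of 0.53 (SE 0.27) and Hdac3, the catalytic subunit of the NCoR corepressor complex that restrains lipogenesis in mouse liver, of -0.35 (SE 0.23). Each was well above background, with Hdac3 at 10.82, 10.76 and 10.39 in water and 10.01, 10.28 and 10.62 in fructose. Hdac10 was under the negative control median on every array. In the whole set, 56 genes were above that median on all 15 arrays, 15 were under it on 1 to 14 arrays and 8 were under it on all arrays.

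**Figure D4:**
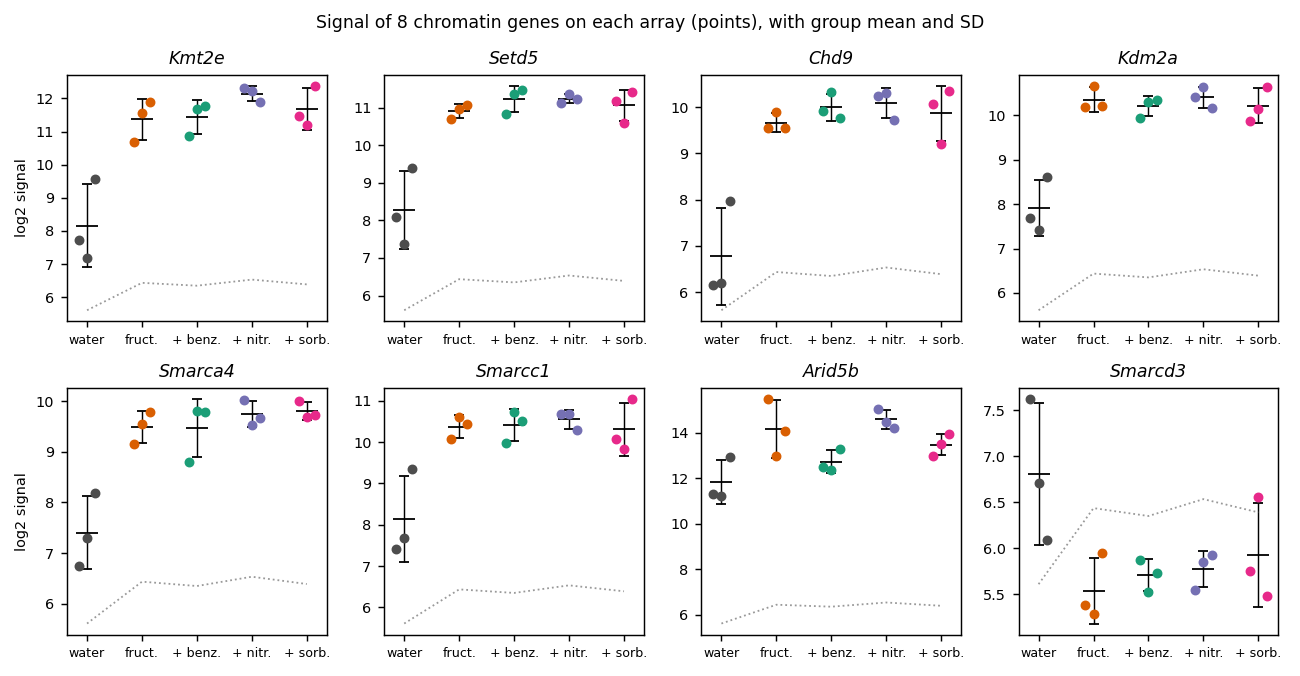
Log2 signal of 8 genes on each of the 15 arrays (points, 3 per group) with the group mean and SD; the dotted line joins the mean negative control median of each group. Water arrays lie under all others in the first 6 panels, Arid5b overlaps water in the benzoate group, and Smarcd3 lies under the dotted line on all 3 fructose arrays.

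Pairs of related genes were compared within arrays. In 11 pairs, the difference between the 2 genes was computed on each array and compared between water and fructose (two-sided exact permutation test, smallest possible p = 0.1, adjusted p = 0.183 over the 11 pairs at that minimum). Kdm5a (log2 difference 0.47) lagged behind Kdm5c (2.51), so that Kdm5a minus Kdm5c changed by -2.04. Kdm3a minus Kdm3b changed by -1.28 and Smarca2 minus Smarca4 by -0.53. In these 3 pairs, water and fructose arrays did not overlap (exact p = 0.1 each, adjusted p = 0.183). In 3 further pairs no value is given, since Setd1a, Smarca1 and Kdm2b, the partners of Setd1b, Smarca5 and Kdm2a, were under the negative control median on all arrays. The 5 pairs Smarcc1 and Smarcc2, Kmt2c and Kmt2d, Kdm6a and Kdm6b, Kdm4a and Kdm4c, and Hdac1 and Hdac2 overlapped between the groups.

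The differences varied with the size of the gene and with its mean signal. By the genomic span that RefSeq gives for GRCm38.p6, introns included, the median log2 difference of fructose from water was -0.16 in 14 genes under 20 kb, 0.17 in 28 genes of 20 to 50 kb, 1.24 in 20 genes of 50 to 100 kb and 1.18 in 17 genes of 100 kb or more. The medians over all genes with 1 symbol were -0.23, -0.02, 0.14 and 0.11 in the same classes. Across the 79 genes, Pearson's r with the logarithm of span was 0.39 and Spearman's rho 0.47, against 0.26 and 0.26 over 19505 genes. Pearson's r with the mean log2 signal of the gene, fructose arrays included, was 0.47, against 0.28 over 19505 genes. Whether span matters apart from signal was not tested. All values come from the same arrays, genes are not independent replicates, and span is not the length of the transcript.

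Enzymes and partners outside the 79 genes were counted in the same contrast, where 8.52% of all probe sets rose and 7.03% fell. Of 13 histone acetyltransferase and partner genes, 4 rose and 0 fell, with a median of 0.51. Crebbp, encoding the acetyltransferase CBP, was at 8.01, 7.36 and 9.33 in water and at 10.86, 11.60 and 11.91 in fructose (difference 3.22, SE 0.43), and its close relative Ep300 rose by 2.23 (SE 0.35). Of 16 other histone methyltransferase genes 7 rose and 0 fell, led by the H3K36 methyltransferase gene Nsd1 (2.43, SE 0.33). In the 22 remaining remodelling ATPase and SWI/SNF partner genes 9 rose and 0 fell, led by Baz1b (2.81, SE 0.32), a partner of the ISWI ATPase. Corepressor partners of deacetylases had 5 rises and 0 falls among 18 genes, led by the NuRD subunit gene Gatad2b (2.00, SE 0.32). Of 14 further JmjC and DNA methylation genes 2 rose, Jmjd1c (2.96, SE 0.49) and Phf8 (2.34, SE 0.36). The core subunits of H3K4 methyltransferase and Polycomb complexes had 2 of 19 genes higher and 2 lower (10.5% each), shares near that background. Among them Ncoa6, a nuclear receptor coactivator of the KMT2C and KMT2D complexes, rose by 2.17 (SE 0.32). Dpy30, a small subunit shared by all H3K4 methyltransferase complexes, was at 10.95, 10.45 and 10.54 in water and at 9.26, 9.30 and 8.94 in fructose (difference -1.48, SE 0.26, limma adjusted p = 0.000592). Bap1, the histone H2A deubiquitinase gene, had a difference of -1.01 (SE 0.30), with overlapping groups.

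The 3 preservative groups were next compared with the same water arrays, which all 4 contrasts share, so that their calls are not independent of each other. With benzoate 32 of the 79 genes rose and 3 fell, where 11.6% of all probe sets rose and 10.2% fell. With nitrite 34 rose and 1 fell (background 11.6% and 10.8%), and with sorbate 30 rose and 2 fell (background 12.1% and 10.7%). With the mean signal of 3 Y-linked genes, which was low on 2 benzoate arrays and all sorbate arrays, as a covariate, 19 genes rose and 0 fell with benzoate (all probe sets 7.96% and 6.23%). By the same fit 34 rose and 1 fell with nitrite, and 7 rose and 0 fell with sorbate (all probe sets 3.09% and 1.71%). Only the benzoate group held arrays with high and with low Y-linked signal. For sorbate against water this covariate thus nearly repeats the treatment, and the lost calls cannot be assigned to either. Without that covariate, median differences of the 79 genes were 0.71, 0.78 and 0.76, against -0.19, -0.15 and -0.20 over all probe sets. Kmt2e was again among the largest rises, at 10.86, 11.68 and 11.77 with benzoate (3.28, SE 0.48), 12.31, 12.23 and 11.89 with nitrite (3.99, SE 0.48) and 11.48, 11.19 and 12.38 with sorbate (3.53, SE 0.48). Setd1b, at 2.03 in fructose alone, had differences of 2.45, 3.14 and 2.53 in the same order.

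Some genes passed the thresholds against water only with a preservative, which is not a test of the preservative. Hdac8, an X-linked class I deacetylase gene, and Kdm6b, which encodes the stress-inducible H3K27 demethylase JMJD3, passed in all 3 preservative groups. Kdm6b was at 6.66, 6.54 and 7.46 in water, at 8.14, 7.23 and 7.38 in fructose and at 8.70, 8.57 and 8.97 with nitrite (1.86 against water, SE 0.30, limma adjusted p = 0.000123). Brd2, a bromodomain reader of acetylated histones, passed with benzoate (1.37) and nitrite (1.38). Kmt5a fell with benzoate (-1.06, SE 0.36) and with sorbate (-1.74, SE 0.36). Its values were 12.71, 12.01 and 11.73 in water and 10.14, 9.90 and 11.19 with sorbate, without overlap. With the Y-linked mean as a covariate, 0 of the 79 genes fell with benzoate and 0 with sorbate, so both calls of Kmt5a were lost. Since that covariate nearly repeats the sorbate treatment, the loss with sorbate does not tell sorbate from Y-linked signal. Chd3 with nitrite and Setd1a with benzoate and nitrite were also called higher, but all arrays of both groups compared were under the negative control median, and no fold change is given for them. Chd3 also passed with benzoate, where 1 of 3 arrays was above that median. Brd8dc, called lower with benzoate and sorbate, was under that median on every array of those groups and on 1 water array.

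Set directly against fructose alone, none of the 79 genes was called in any preservative group, while Kdm5c was called with sorbate when only those 2 groups were fitted. The background was 0.0135% higher and 0% lower with benzoate, 0% and 0% with nitrite, and 0.41% higher and 0.225% lower with sorbate. By limma, unadjusted p was under 0.05 in 6 genes with benzoate, 5 with nitrite and 13 for the sorbate group. Over all probe sets the shares at that level were 9.37%, 5.2% and 13.4%, so these counts were near the background. The 13 genes for sorbate included 4 of the 5 X-linked genes of the set, and all 5 X-linked differences were above 0 (median 0.66). Y-linked signal was low on all sorbate arrays. The lowest unadjusted p belonged to Kdm6b with nitrite (log2 difference 1.16, SE 0.30, limma adjusted p = 0.903) and Hdac11 with benzoate (0.99, SE 0.27, limma adjusted p = 0.259). Hdac11, a class IV deacetylase gene, was at 7.59, 8.05 and 7.56 in fructose and at 8.67, 8.45 and 9.05 with benzoate. These arrays did not overlap, and the water arrays (8.49, 8.53 and 7.92) overlapped both. Arid5b was lower with benzoate than with fructose alone, at 12.47, 12.37 and 13.29 (difference -1.45, SE 0.52, adjusted p = 0.416). For sorbate the lowest unadjusted p belonged to Smarcal1, an annealing helicase gene (0.88, SE 0.27, limma adjusted p = 0.154), followed by Kdm5c. Smarcal1 was under the negative control median on all 3 fructose arrays. Of 7 Kupffer cell and macrophage markers, 3 were called higher with sorbate than with fructose alone. All 7 were above 0 with sorbate (median 0.84) and with benzoate (median 0.93, none called), and 6 with nitrite (median 0.32, none called). The part of these marker differences in the results was not tested.

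Kdm5c and Kdm6a sit on the X chromosome, have Y-linked counterparts and are known to escape X inactivation in mice, so that females express both copies. The sex of each mouse is not in the labels, and the methods state that both sexes were used equally. The mean of 3 Y-linked genes (Eif2s3y, Uty and Kdm5d) was between 9.37 and 10.00 on all water, fructose and nitrite arrays and on benzoate array 1. It was 3.57 and 3.51 on benzoate arrays 2 and 3, and between 3.39 and 4.17 on the sorbate arrays. Kdm5c was at 8.91, 9.58 and 9.62 with fructose, 9.37, 10.43 and 10.61 with benzoate, 9.93, 9.68 and 10.16 with nitrite and 10.74, 10.63 and 10.70 with sorbate. The 5 arrays with low Y-linked signal were the 5 highest for Kdm5c among all 15. Kdm6a was at 10.21, 10.86 and 10.54 with fructose, 10.27, 11.67 and 11.42 with benzoate, 10.65, 10.85 and 10.60 with nitrite and 11.15, 11.23 and 11.61 with sorbate. The same 5 arrays were again the highest. Sorbate against fructose, Kdm5c differed by 1.32 (SE 0.42, limma adjusted p = 0.157), and by 0.42 (SE 0.67, adjusted p = 0.943) with the Y-linked mean as a covariate. For Kdm6a the values were 0.79 (adjusted p = 0.298) and -0.32 (adjusted p = 0.930). Only the benzoate group held both high and low Y-linked signal, so this covariate nearly repeats the sorbate treatment. The fit therefore cannot tell sorbate from Y-linked signal in these genes. Fructose against water changed little by this covariate, from 2.51 to 2.52 in Kdm5c and from 1.30 to 1.32 in Kdm6a, since Y-linked signal was high on all 6 of those arrays.

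**Figure D5:**
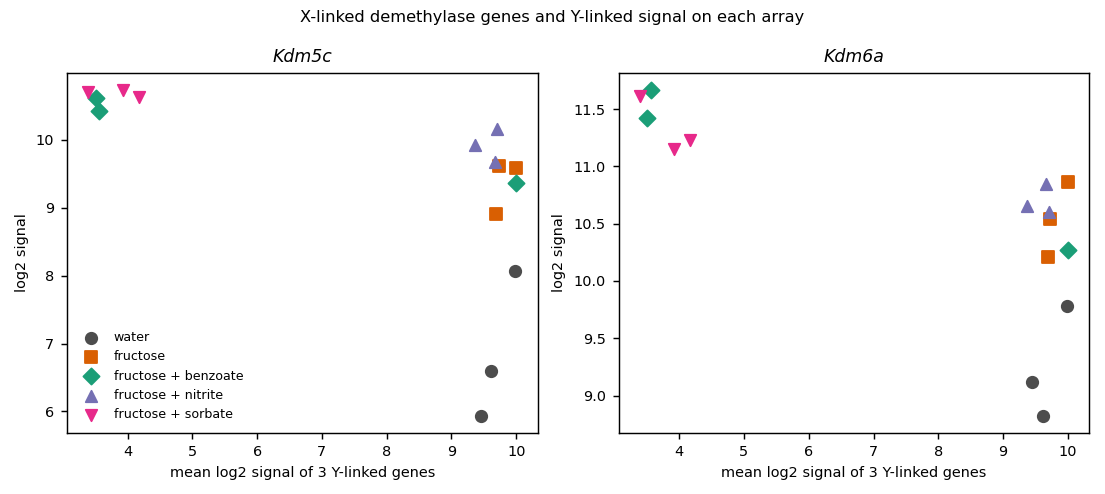
Log2 signal of Kdm5c and Kdm6a on each array against the mean log2 signal of 3 Y-linked genes, marked by group. The 5 arrays with a Y-linked mean from 3.39 to 4.17 (2 benzoate, 3 sorbate) carry the highest values of both genes, and at high Y-linked signal the water arrays lie lowest.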

How the data were processed

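Mouse liver RNA of 15 mice was measured on 1-colour expression arrays. The authors deposited log2 signals, normalized with SST-RMA in Transcriptome Analysis Console per the methods; the submitters' processing notes name RMA and Affymetrix Expression Console 1.4. The values were used as deposited, without further normalization or filter. Control probes (6640 of 28846 entries) were kept out of the tests, and 22206 probe sets were fitted with limma 3.58.1 in R 4.3.3, 1 mean per group over all arrays, with Benjamini-Hochberg adjustment. Each value summarises the probes of a probe set. Small log2 differences of dim genes may be compressed, which was not tested. The number of arrays limits the precision. Each array was a separate mouse according to the design text.

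A gene symbol came from the platform annotation, and no gene of the set had several probe sets. Genes, gene lists and tests were chosen with earlier results of these data known. Any of the 79 genes could be named. Values on every array were given for the 4 largest called rises and falls in fructose, the largest of each role list, the X-linked Kdm5c and Kdm6a, and some further genes chosen after their values were seen. Protein length classes were not analysed here. Genomic span was used in their place, chosen after seeing the data. A gene was under background where its signal was below the median of 5222 negative controls on that array. This median was higher on fructose arrays (mean 6.44) than on water arrays (mean 5.61), so the bar differs between groups. On some arrays it lay above the median of all probe sets, as on fructose array 2 (6.53 against 6.35) and all nitrite arrays. Fold bounds set signals under background to the negative control median of the array. Promoter sequences and spans are RefSeq's (GRCm38.p6). Alternatives covered normalization, filters, thresholds, covariates and arrays left out. The fit was also run on simulated data, with independent noise for each probe set and no shift of whole arrays. That run cannot speak to the differences in control probes between water and fructose arrays.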

Additional observations from a re-analysis of the deposited data

How the results depend on the processing

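In fructose against water, 28 genes higher and 1 lower also resulted with trended and robust variances and with probe sets of 1 symbol only. A filter at the 30th percentile, which kept 70 of the 79 genes, and the Y-linked mean as a covariate gave the same counts. In these fits, 8.54% to 12.1% of the probe sets fitted rose and 6.95% to 7.94% fell. Taking the lowest probe set of a symbol could change nothing, because no gene of the set had several. With the replicate block the counts were 28 and 1 as well (8.58% and 7.08% of all probe sets). Deviations of same-numbered arrays from their group means correlated weakly (r from -0.08 to 0.22 over 30 pairs, median 0.03, 5 above 0.1). Arrays of another number and group gave r from -0.19 to 0.16 over 60 pairs (median -0.01, 4 above 0.1). Whether the numbers pair arrays was not tested. Quantile normalization gave 26 higher and 2 lower (8.83% and 7.57% of all probe sets), and median centring 30 and 1 (9.56% and 5.59%). The 2 groups alone gave 25 and 1 (7.71% and 6.18%), and any fold change 32 and 3 (11.8% and 12.7%). Leaving out 1 array at a time gave 23 to 30 higher, 0 to 3 lower and medians from 0.48 to 0.58. Of all probe sets, 7.29% to 11.1% rose and 5.69% to 10.9% fell in those fits. Calls were lost without water array 1 (Arid4b 0.82, Kdm5b 0.99, Kdm7a 0.79, Kmt2c 0.84, Smarcad1 0.68, Smarcd3 -0.86). Calls were also lost without water array 2 (Hdac6 0.94, Kdm7a 0.92) or water array 3 (Chd7 0.96, Kmt2c 0.90). The same held for fructose array 2 (Chd7 1.02, Kdm7a 1.04, Kmt2c 0.99, Smarcad1 1.00, Smarcd3 -1.15) and fructose array 3 (Hdac6 0.90, Kmt2c 0.92, Smarcad1 1.10). Without water arrays 1 and 2 there were 10 higher and 0 lower, with a median of 0.31 and 2.39% of all probe sets higher.

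With the hybridization controls as a covariate, 0 genes were higher and 0 lower, the median was 0.022, and 6 genes changed sign: Arid4a (-0.26), Kdm6a (-0.13), Kdm7a (-0.21), Setd1b (-0.63), Smarcad1 (-0.049) and Smarcc1 (-0.056). This covariate nearly repeats the treatment, and the cause was not tested. Calls of Kdm7a, Kmt2c and Smarcad1 were lost under quantile normalization and with the 2 groups alone.

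Against water, 35 genes were called with benzoate, 35 with nitrite and 32 with sorbate. Without water arrays 1 and 2 the counts were 17, 18 and 19 (11.5%, 12.6% and 12.9% of all probe sets called), and with the hybridization controls as a covariate 0, 0 and 0. With the Y-linked mean as a covariate, benzoate gave 19 (14.2% of all probe sets called, against 21.8% before) and sorbate 7 (4.8% against 22.8%). For sorbate this covariate nearly repeats the treatment, and the cause of the drop was not tested. Against fructose, the call count with sorbate went from 0 to 1 (Kdm5c) when only those groups were fitted. Genes under the negative control median have no measurable fold change at this signal.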
